A study of Homo sapiens with 9 samples.

Results

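Transcripts of the bone morphogenetic protein (BMP) pathway were followed in GIST-T1 cells, an established human tumour line labelled as GIST. Gastrointestinal stromal tumours (GIST) are mesenchymal tumours of the gut wall that share markers with interstitial cells of Cajal. The 10 genes described are the ligands BMP2, BMP4 and BMP5, the receptors BMPR1A and BMPR2, the secreted antagonists GREM1 and NOG, the inhibitory SMADs SMAD6 and SMAD7, and TMEM100, taken by their symbols from the 23610 genes of the deposited table. Of the 10, 7 passed the filter on low values, and GREM1, NOG and SMAD7 did not. They were chosen by earlier results of these data, namely the differences of TMEM100 and BMP4 with HAND1 sgRNA, so for those 2 genes the comparisons with HAND1 sgRNA are given as a description, with no p, and counts over the 10 genes support nothing by themselves. PolyA RNA was sequenced in 9 libraries, of which 3 carried an sgRNA against HAND1, 3 an sgRNA against ETV1 and 3 a control sgRNA against Luciferase. HAND1 belongs to the basic helix-loop-helix transcription factors and is best known from heart and other mesoderm, while ETV1 is an ETS factor on which Cajal cells and GIST depend. All groups are the same cell line, and the labels call the sgRNA a knockdown. They give neither the sgRNA sequences nor the effector protein, and leave unsaid whether replicates were cultured separately, so the p-values rest on a spread between libraries that may be purely technical.

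BMP ligands are secreted dimers of the TGF-beta superfamily that bring together type I receptors, such as BMPR1A, and type II receptors, such as BMPR2. The active type I receptor phosphorylates SMAD1, SMAD5 and SMAD9, which enter the nucleus with SMAD4 and act on target genes such as ID1. GREM1 and NOG bind the ligands outside the cell, SMAD6 and SMAD7 restrain the pathway inside it as induced feedback, and TMEM100 is a membrane protein known from mouse endothelium as a target of BMP9 and BMP10 acting through the receptor ACVRL1. In the gut, BMP signals between epithelium and mesenchyme help to set up the muscle layers and their nerves.

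HAND1 and ETV1 transcripts were each lowest where the sgRNA was aimed at them. HAND1 was at 36.5 to 40.8 FPKM (fragments scaled by transcript length and library size) in HAND1 sgRNA libraries, 129.7 to 134 FPKM in ETV1 sgRNA libraries and 114 to 116 FPKM in Luciferase sgRNA libraries. ETV1 averaged 11.4 ± 0.571 FPKM with ETV1 sgRNA and 39.7 ± 2.42 FPKM with Luciferase sgRNA (SD, n = 3 each). All 7 GIST and Cajal cell markers had a mean of at least 1 FPKM over the 9 libraries. The mean was below 1 FPKM for 6 of 6 epithelial, 5 of 6 smooth muscle, 5 of 6 blood and 6 of 7 sensory neuron and glia markers. In the last list TRPA1 lay between 11.2 and 14.5 FPKM. Besides HAND1 itself, 3 of the 7 GIST and Cajal cell markers were lower with HAND1 sgRNA than with Luciferase sgRNA in limma. They were GPR20 (-0.84, adjusted p = 1.25e-04), PRKCQ (-0.75, adjusted p = 3.26e-04) and KIT (-0.38, adjusted p = 0.00336), as log2 differences. Over all genes tested 2.93% were called lower. ANO1 (0.04, adjusted p = 0.659), CD34 (0.07, adjusted p = 0.652) and ETV1 (0.04, adjusted p = 0.761) were not called in the same comparison. The blood marker CD68 was higher (0.50, adjusted p = 0.0466), at 6.13 ± 0.692 FPKM with HAND1 sgRNA and 4.06 ± 0.629 FPKM with Luciferase sgRNA (SD, n = 3 each). The part of these marker differences in the results on the BMP genes was not tested. Relative depth lay between 0.637 and 1 of that of Luciferase sgRNA replicate 1. Luciferase sgRNA replicate 3 stood apart with the highest sum of FPKM, 538689 against 451286 to 479939 in the other libraries, and differences from the control that turned, lost or gained a call or moved by over 1.5 times without it are also given without it.

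**Figure D1:**
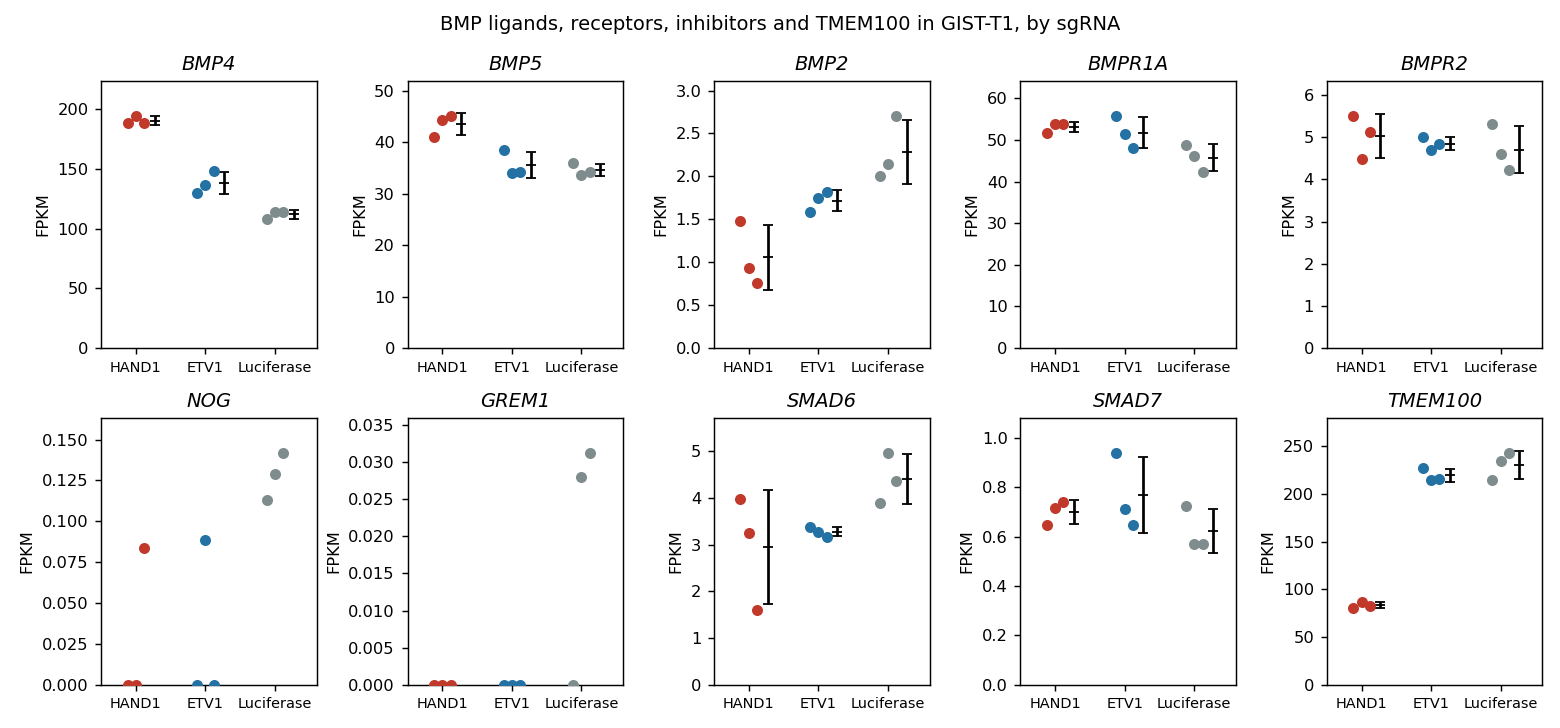
Each panel plots 1 of the 10 genes in FPKM from 0, with 1 point per library for HAND1, ETV1 and Luciferase sgRNA; the bar beside the points is the mean and SD of 3 libraries and is left out for NOG and GREM1, which were listed at 0 in several libraries. The HAND1 sgRNA libraries sit apart for BMP4 (188 to 194 FPKM, above all others) and TMEM100 (80.8 to 87.0 FPKM, below all others).

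Start regions of the genes were examined for short motifs, because BMP4 and BMP5 were both higher with HAND1 sgRNA (values below) and SMAD6 is a textbook target of BMP SMADs. RefSeq start regions (build GRCh38.p14, 250 bases before to 50 after a start site) were matched by symbol for 7 of the 10 genes, 12 regions in all, and BMP2, NOG and TMEM100 had no entry. The regions shown are a BMP4 start at chr14:53953346-53953645 on the minus strand, the BMP5 start at chr6:55875541-55875840 on the minus strand and the SMAD6 start at chr15:66701986-66702285 on the plus strand. Capitals mark the E-box CANNTG, the core that basic helix-loop-helix factors bind, in BMP4 and BMP5, and the palindrome GTCTAGAC, a SMAD binding element, in SMAD6.
BMP4: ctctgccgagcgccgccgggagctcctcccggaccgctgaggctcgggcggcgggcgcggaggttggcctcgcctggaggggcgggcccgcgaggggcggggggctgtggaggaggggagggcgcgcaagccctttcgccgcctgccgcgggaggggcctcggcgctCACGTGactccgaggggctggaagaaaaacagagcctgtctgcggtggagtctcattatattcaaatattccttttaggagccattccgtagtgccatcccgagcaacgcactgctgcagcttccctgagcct
BMP5: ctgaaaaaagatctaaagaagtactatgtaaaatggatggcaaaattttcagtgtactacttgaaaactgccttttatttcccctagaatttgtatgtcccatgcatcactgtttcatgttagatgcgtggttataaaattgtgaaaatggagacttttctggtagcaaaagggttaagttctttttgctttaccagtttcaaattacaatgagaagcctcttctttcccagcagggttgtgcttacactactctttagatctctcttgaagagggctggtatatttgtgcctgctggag
SMAD6: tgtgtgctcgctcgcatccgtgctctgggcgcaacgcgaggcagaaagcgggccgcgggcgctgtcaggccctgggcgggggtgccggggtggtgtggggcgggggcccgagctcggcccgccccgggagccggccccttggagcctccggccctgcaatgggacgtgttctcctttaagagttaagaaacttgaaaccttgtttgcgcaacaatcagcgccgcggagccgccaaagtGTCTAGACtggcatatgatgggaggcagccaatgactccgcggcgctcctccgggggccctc

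Both strands were searched. The BMP4 start shown held a single E-box that began 83 bases before the start site, and neither of its other 2 starts held any, nor did that of BMP5. E-boxes were in 6 of the 12 regions, against 68.7% of 35114 start regions of the same length. The E-box form CATCTG, which is also counted as CANNTG, was in 0 of the 12, against 14.7%. GTCTAGAC was in the SMAD6 region alone, 12 bases before the start site, against 0.202% of all regions, and it did not overlap the E-box CATATG of that region. GGCGCC, a GC-rich element of BMP SMADs, was in 3 of the 12 regions, against 19.2%. A match is a description of the letters in these windows and says nothing of binding.

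BMP4, the most abundant of 15 listed BMP ligand transcripts, was at its highest in all 3 HAND1 sgRNA libraries. Its level was 189, 194 and 188 FPKM in HAND1 sgRNA libraries, 130.1, 136 and 148 FPKM in ETV1 sgRNA libraries, and 108, 114 and 114 FPKM in Luciferase sgRNA libraries. The 3 groups did not overlap, with the ETV1 sgRNA libraries between the others. Means were 190.3 ± 3.47 FPKM with HAND1 sgRNA, 138 ± 9.13 FPKM with ETV1 sgRNA and 112 ± 3.48 FPKM with Luciferase sgRNA (SD, n = 3 each). On the scale log2(FPKM + 1), which understates the change of low genes and on which all differences are given, HAND1 sgRNA lay 0.76 (SE 0.057) above Luciferase sgRNA and 0.46 (SE 0.057) above ETV1 sgRNA. ETV1 sgRNA lay 0.30 (SE 0.057; 95% confidence interval 0.17 to 0.43) above Luciferase sgRNA, which was not called in limma (adjusted p = 0.101; range over the alternatives 0.0702 to 0.336).

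BMP5, a ligand of the BMP7 subgroup, rose more modestly with HAND1 sgRNA. It was at 41.1, 44.4 and 45.1 FPKM in HAND1 sgRNA libraries, 38.5, 34.0 and 34.2 FPKM in ETV1 sgRNA libraries, and 35.9, 33.6 and 34.1 FPKM in Luciferase sgRNA libraries. All HAND1 sgRNA values lay above those of both other groups, which overlapped each other. In limma the difference was 0.32 (SE 0.064, adjusted p = 0.0129) from Luciferase sgRNA and 0.29 (SE 0.064, adjusted p = 0.0345) from ETV1 sgRNA. ETV1 sgRNA differed from Luciferase sgRNA by 0.04 (95% confidence interval -0.10 to 0.18, adjusted p = 0.929). Leaving out HAND1 sgRNA replicate 2 (adjusted p = 0.0546) or 3 (0.0635) ended the call against Luciferase sgRNA, as did leaving out Luciferase sgRNA replicate 2 (0.0556). That against ETV1 sgRNA was lost without HAND1 sgRNA replicate 2 (0.119) or 3 (0.140), ETV1 sgRNA replicate 2 (0.129) or 3 (0.127) or Luciferase sgRNA replicate 2 (0.0559), and with no intensity trend (0.0613) or no filter on low values (0.0508).

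BMP2, the closest relative of BMP4 among the ligands, was low and went the other way. It was at 1.48, 0.934 and 0.755 FPKM in HAND1 sgRNA libraries, 1.59, 1.75 and 1.82 FPKM in ETV1 sgRNA libraries, and 2.00, 2.14 and 2.71 FPKM in Luciferase sgRNA libraries. The 3 groups did not overlap, with ETV1 sgRNA again between the others, all at low levels. BMP2 fell by 0.69 (log2, SE 0.15, adjusted p = 0.0196 in limma) with HAND1 sgRNA against Luciferase sgRNA. Leaving out HAND1 sgRNA replicate 2 (adjusted p = 0.0730) or 3 (0.0782) ended the call, as did leaving out Luciferase sgRNA replicate 2 (0.0530) or 3 (0.0587) or the third group (0.0513). The difference was -0.27 (95% confidence interval -0.59 to 0.06, adjusted p = 0.700) between ETV1 sgRNA and Luciferase sgRNA (-0.18 without Luciferase sgRNA replicate 3) and -0.42 (-0.74 to -0.09, adjusted p = 0.184) between HAND1 sgRNA and ETV1 sgRNA.

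Over 15 ligand genes (the 3 above and 12 others listed), the summed level was 257, 268 and 259 FPKM in HAND1 sgRNA libraries, 199, 199 and 216 FPKM in ETV1 sgRNA libraries, and 171, 176 and 178 FPKM in Luciferase sgRNA libraries. BMP4 made up 73.3, 72.5 and 72.5% of that sum with HAND1 sgRNA, 65.3, 68.7 and 68.7% with ETV1 sgRNA, and 63.0, 64.8 and 63.8% with Luciferase sgRNA. GDF10, a divergent member of the family also called BMP3B, was the third ligand by level, at 21.2 ± 1.79 FPKM with HAND1 sgRNA, 25.0 ± 2.13 FPKM with ETV1 sgRNA and 23.4 ± 1.13 FPKM with Luciferase sgRNA (SD, n = 3 each; not called in any comparison). BMP4 made up most of the sum and was chosen for its difference with HAND1 sgRNA, so the sums and shares largely restate BMP4. They are no separate result on the ligands as a whole. These sums and shares describe transcripts per length and were not tested.

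**Figure D2:**
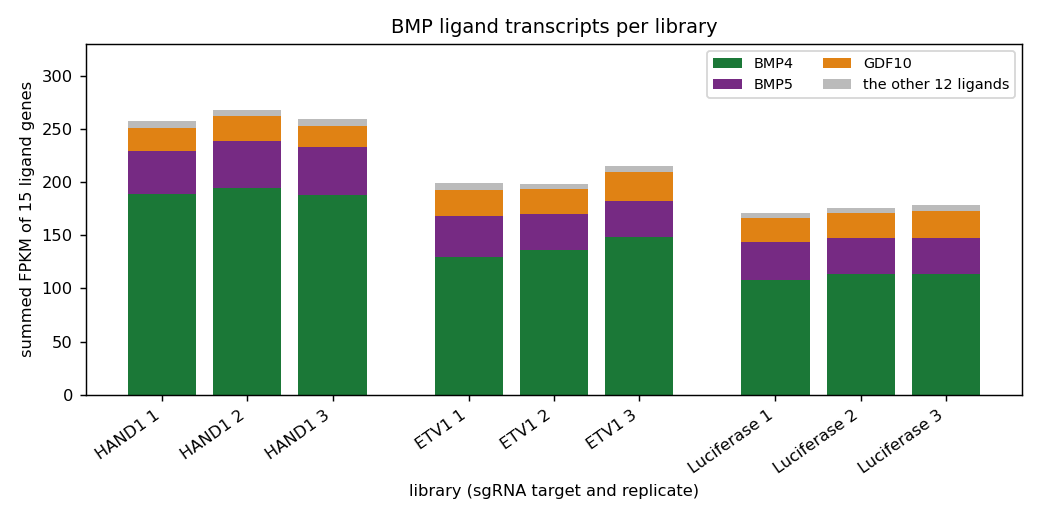
Stacked bars give the summed FPKM of 15 BMP ligand genes (vertical axis from 0) in each library, split into BMP4, BMP5, GDF10 and the other 12. BMP4 is the largest block in every library, and the HAND1 sgRNA bars (257 to 268) stand above the ETV1 sgRNA bars (199 to 216) and the Luciferase sgRNA bars (171 to 178). BMP4 was chosen for its difference with HAND1 sgRNA, so the heights of the bars largely restate BMP4 and are a description.

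Neither receptor was called in any comparison. BMPR1A, the type I receptor also known as ALK3, was at 51.7, 53.8 and 53.7 FPKM in HAND1 sgRNA libraries, 55.8, 51.4 and 48.1 FPKM in ETV1 sgRNA libraries, and 48.8, 46.0 and 42.4 FPKM in Luciferase sgRNA libraries. The HAND1 sgRNA values lay above the control values by 0.21 (95% confidence interval 0.06 to 0.36), and this was not called in limma (adjusted p = 0.102). The ETV1 sgRNA values overlapped both other groups, with a difference of 0.18 (0.02 to 0.33, adjusted p = 0.528) from Luciferase sgRNA. HAND1 sgRNA differed from ETV1 sgRNA by 0.04 (-0.11 to 0.19, adjusted p = 0.870). BMPR2, the type II receptor, lay between 4.22 and 5.51 FPKM in all 9 libraries, far below BMPR1A per transcript length, and its 3 groups overlapped. Its differences were 0.08 (-0.13 to 0.30) for HAND1 sgRNA against Luciferase sgRNA, 0.04 (-0.18 to 0.25) for ETV1 sgRNA against Luciferase sgRNA, and between HAND1 sgRNA and ETV1 sgRNA 0.04 (-0.17 to 0.26), with adjusted p-values in limma of 0.698, 0.961 and 0.897. Without Luciferase sgRNA replicate 3 the differences from Luciferase sgRNA were 0.02 with HAND1 sgRNA and -0.02 with ETV1 sgRNA for BMPR2, and 0.16 with HAND1 sgRNA and 0.12 with ETV1 sgRNA for BMPR1A.

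The antagonists among the 10 genes were barely detected. GREM1, gremlin, was listed at 0 in 7 of 9 libraries and reached 0.0313 FPKM in a Luciferase sgRNA library. NOG, noggin, was listed at 0, 0 and 0.0839 FPKM in HAND1 sgRNA libraries, 0, 0.0887 and 0 FPKM in ETV1 sgRNA libraries, and 0.113, 0.129 and 0.142 FPKM in Luciferase sgRNA libraries. SMAD7, the inhibitory SMAD shared with TGF-beta signalling, lay between 0.570 and 0.940 FPKM, with overlapping groups. These 3 genes were below the mean of 1 FPKM that a gene needed to be tested, so no test is given for them. None of 16 genes that every cell uses was at 0 in any library.

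SMAD6, the inhibitory SMAD that acts mostly on the BMP branch and whose start region is shown above, was at 3.98, 3.25 and 1.61 FPKM in HAND1 sgRNA libraries, 3.37, 3.28 and 3.17 FPKM in ETV1 sgRNA libraries, and 3.88, 4.97 and 4.36 FPKM in Luciferase sgRNA libraries. HAND1 sgRNA replicate 3 was the lowest of all libraries, and HAND1 sgRNA replicate 1 lay within the control range. The differences were -0.50 (95% confidence interval -0.94 to -0.06, adjusted p = 0.184) with HAND1 sgRNA and -0.33 (-0.78 to 0.11, adjusted p = 0.740) with ETV1 sgRNA, both against Luciferase sgRNA and neither called in limma. The difference of HAND1 sgRNA from ETV1 sgRNA was -0.17 (-0.61 to 0.28, adjusted p = 0.780). Without HAND1 sgRNA replicate 3, HAND1 sgRNA differed by -0.23 from Luciferase sgRNA (adjusted p = 0.397) and by 0.11 from ETV1 sgRNA.

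TMEM100 was the member that differed most, but its difference with HAND1 sgRNA was among the grounds for choosing the members. Its level was 80.8, 87.0 and 82.7 FPKM in HAND1 sgRNA libraries, 228, 215 and 216 FPKM in ETV1 sgRNA libraries, and 214, 234 and 244 FPKM in Luciferase sgRNA libraries. All HAND1 sgRNA values lay far below the other 6, which overlapped each other. HAND1 sgRNA differed by -1.45 (SE 0.060) from Luciferase sgRNA and by -1.38 (SE 0.060) from ETV1 sgRNA, and over the 18 alternatives the first lay between -1.51 and -1.39. ETV1 sgRNA differed from Luciferase sgRNA by -0.07 (95% confidence interval -0.20 to 0.06), which was not called in limma (adjusted p = 0.829) and was -0.03 without Luciferase sgRNA replicate 3. In these bulk libraries, fewer cells with a transcript and less transcript per cell cannot be told apart.

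TMEM100 is best known from endothelium, and endothelial markers were set beside it. Of 12 markers 10 had a mean below 1 FPKM, among them PECAM1 (at most 0.0799 FPKM), VWF (at most 0.111 FPKM) and CDH5 (at most 0.448 FPKM). ERG lay between 0.773 and 1.59 FPKM, and EGFL7 between 62.0 and 84.1 FPKM. The summed level of the 12 was 64.0 to 70.9 FPKM in HAND1 sgRNA libraries, 70.1 to 85.3 FPKM in ETV1 sgRNA libraries and 67.4 to 76.3 FPKM in Luciferase sgRNA libraries. Of the route to TMEM100 known in mouse endothelium, the ligand genes GDF2 (BMP9) and BMP10 were listed at 0 in every library, while the receptor ACVRL1 lay between 10.1 and 12.1 FPKM and the co-receptor ENG, endoglin, between 435 and 516 FPKM. GDF2, BMP10 and ACVRL1 were chosen after their values were seen.

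**Figure D3:**
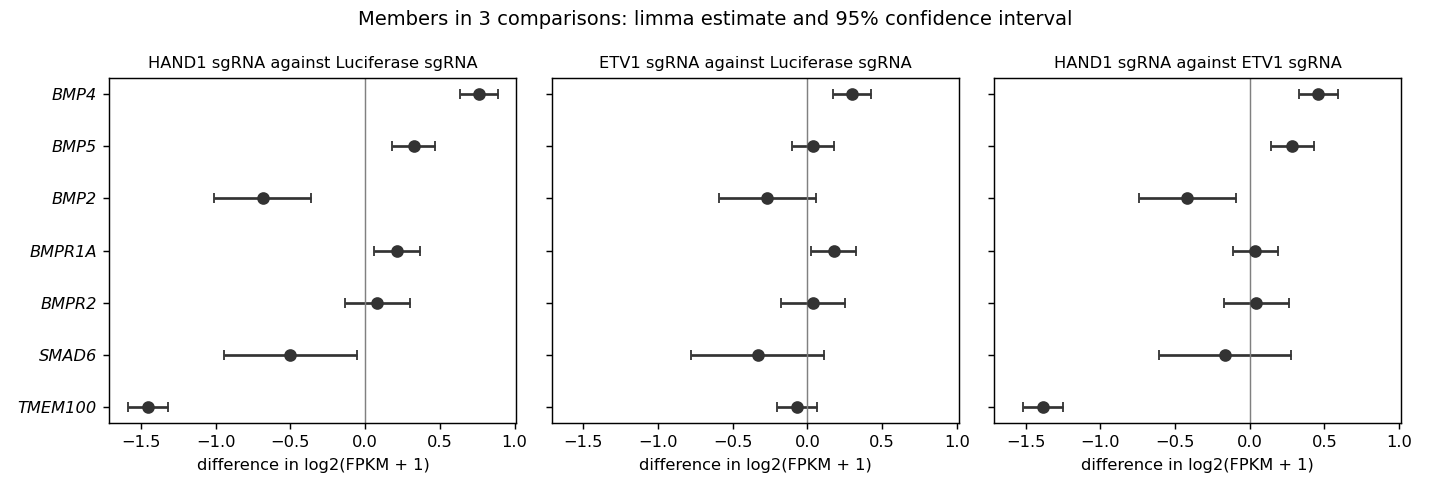
Points give the difference in log2(FPKM + 1) of the 7 genes that were tested or described, with 95% confidence intervals from limma, for each of the 3 comparisons between sgRNAs. TMEM100 is far below 0 in both comparisons with HAND1 sgRNA (-1.45 and -1.38) and close to 0 with ETV1 sgRNA (-0.07); its intervals and those of BMP4 in the HAND1 sgRNA comparisons are a description.

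With HAND1 sgRNA against Luciferase sgRNA, limma put 4 of the 7 measurable genes past an adjusted p of 0.05, 2 higher (BMP4, BMP5) and 2 lower (BMP2, TMEM100). Over all 11348 genes 6.6% were called in that comparison, 3.67% higher and 2.93% lower, and since BMP4 and TMEM100 were chosen for this difference nothing is read from the count. The 7 had a median difference of 0.08, against -0.01 over all genes. With ETV1 sgRNA against Luciferase sgRNA 0 of the 7 were called, 2 had an unadjusted p under 0.05 (BMP4 and BMPR1A), and 0.203% of all genes were called, 0.141% higher and 0.0617% lower. The medians of that comparison were 0.04 over the 7 and -0.01 over all genes. With HAND1 sgRNA against ETV1 sgRNA 3 of the 7 were past the threshold, 2 higher (BMP4, BMP5) and 1 lower (TMEM100). Of all genes 4.05% were called, 2.01% higher and 2.04% lower. Because BMP4 and TMEM100 were chosen for their differences with HAND1 sgRNA, nothing is read from this count either. The median was 0.04 over the 7, against -0.00 over all genes. The 2 comparisons with Luciferase sgRNA share its libraries, and both comparisons with HAND1 sgRNA share those, so they are not independent.

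Beyond the 10 genes, 70 other genes of the pathway were listed by role, of which 38 were expressed highly enough to be tested. The lists were drawn up with earlier results of these data known, so their counts and shares are a description. Among the genes that rose, FST would not have passed the filter on low values without its HAND1 sgRNA libraries. With HAND1 sgRNA against Luciferase sgRNA 5 rose, 3 fell and 30 were not called in limma, so that 21.1% were called, against 6.6% of all genes, and the median difference was 0.01, against -0.01 over all genes. Against ETV1 sgRNA, HAND1 sgRNA gave 3 higher and 1 lower, 10.5% against 4.05% of all genes, with a median of 0.05 against -0.00. With ETV1 sgRNA against Luciferase sgRNA 0 were called, against 0.203% of all genes, 2 had an unadjusted p under 0.05, and the medians were -0.00 and -0.01. The counts by role that follow stand beside the same shares of all genes, and with 2 to 12 genes tested in a role they are given as a description.

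Among the 12 other ligands 2 could be tested, and BMP7 rose with HAND1 sgRNA. BMP7, a ligand best known from kidney and bone, was at 3.88, 4.13 and 4.73 FPKM in HAND1 sgRNA libraries, 1.78, 2.03 and 2.00 FPKM in ETV1 sgRNA libraries, and 1.75, 1.95 and 1.89 FPKM in Luciferase sgRNA libraries. Every HAND1 sgRNA value lay above the other 6. The difference was 0.87 (SE 0.099, adjusted p = 5.09e-04) from Luciferase sgRNA and 0.84 (SE 0.099, adjusted p = 9.39e-04) from ETV1 sgRNA, and both calls held under all 17 alternatives that kept the gene.

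Of 22 extracellular and membrane modulators 9 were tested, and 3 rose and 1 fell with HAND1 sgRNA. TWSG1, twisted gastrulation, which binds BMPs and can hinder or help them, was at 26.2 ± 1.46 FPKM with HAND1 sgRNA, 21.3 ± 0.698 FPKM with ETV1 sgRNA and 18.9 ± 0.547 FPKM with Luciferase sgRNA (SD, n = 3 each). It rose by 0.45 (SE 0.058, adjusted p = 0.00117) against Luciferase sgRNA, a call that held under all 18 alternatives. Against ETV1 sgRNA it rose by 0.29 (adjusted p = 0.0215), a call lost without HAND1 sgRNA replicate 2 (0.0882) or 3 (0.0740) or ETV1 sgRNA replicate 1 (0.0551), 2 (0.0620) or 3 (0.0846).

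FST, follistatin, a binder of activins and some BMPs, was at 2.42, 1.21 and 2.00 FPKM in HAND1 sgRNA libraries, 1.22, 1.47 and 1.07 FPKM in ETV1 sgRNA libraries, and 0.410, 0.839 and 0.590 FPKM in Luciferase sgRNA libraries. Its control values were below those of both other groups, and the rise with HAND1 sgRNA was 0.82 (SE 0.18, adjusted p = 0.0206 in limma). Group means were 1.88 FPKM with HAND1 sgRNA, 1.25 FPKM with ETV1 sgRNA and 0.613 FPKM with Luciferase sgRNA. Without its HAND1 sgRNA libraries FST would not have passed the filter on low values, so its call is a description. Leaving out HAND1 sgRNA replicate 1 (adjusted p = 0.0800) or 3 (0.0820) ended the call, as did leaving out Luciferase sgRNA replicate 1 (0.0698). BAMBI, a decoy receptor that lacks a kinase domain, was at 1.32, 2.06 and 1.31 FPKM in HAND1 sgRNA libraries, 2.39, 2.08 and 2.87 FPKM in ETV1 sgRNA libraries, and 3.34, 2.73 and 2.70 FPKM in Luciferase sgRNA libraries. It fell by 0.62 (SE 0.14, adjusted p = 0.0275) against Luciferase sgRNA, a call that ended when the filter on low values was dropped (adjusted p = 0.0557), when replicate 1 (0.0985) or 3 (0.106) of HAND1 sgRNA was left out, and when replicate 1 (0.0906) or 2 (0.0642) of Luciferase sgRNA was.

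NBL1, also called DAN, a secreted BMP antagonist related to gremlin, was the most abundant modulator. It was at 418, 406 and 431 FPKM in HAND1 sgRNA libraries, 293, 296 and 325 FPKM in ETV1 sgRNA libraries, and 284, 302 and 372 FPKM in Luciferase sgRNA libraries, where replicate 3 was the highest. Its exons overlap the same-strand genes MINOS1 and MINOS1-NBL1 in GENCODE 29, so its value is uncertain. The rise was 0.40 (SE 0.094, adjusted p = 0.0316) against Luciferase sgRNA and 0.46 (SE 0.094, adjusted p = 0.0221) against ETV1 sgRNA, and the first was 0.51 (adjusted p = 6.56e-04) without Luciferase sgRNA replicate 3. The first call ended when the fit left out HAND1 sgRNA replicate 1 (adjusted p = 0.0922), 2 (0.0734) or 3 (0.117), ETV1 sgRNA replicate 1 (0.0513) or 2 (0.0514) or Luciferase sgRNA replicate 1 (0.0899) or 2 (0.108), with no filter on low values (0.0712) and with only the 2 groups compared (0.0760). The second was lost without HAND1 sgRNA replicate 1 (0.0811), 2 (0.0605) or 3 (0.0947) or ETV1 sgRNA replicate 1 (0.0893) or 2 (0.0916), and with no filter on low values (0.0553).

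None of the 7 tested receptors and co-receptors outside the 10 genes was called in limma in any of the 3 comparisons. The unadjusted p was under 0.05 for 1 of them with HAND1 sgRNA against Luciferase sgRNA, 0 with ETV1 sgRNA against Luciferase sgRNA and 1 with HAND1 sgRNA against ETV1 sgRNA. ENG, the most abundant, was at 509 ± 6.76 FPKM with HAND1 sgRNA, 451 ± 11.1 FPKM with ETV1 sgRNA and 466 ± 26.6 FPKM with Luciferase sgRNA (SD, n = 3 each). RGMB, a co-receptor also known as dragon, averaged 12.4 FPKM over the 9 libraries and reached at most 13.6 FPKM.

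Of 13 transducers and their regulators 12 were tested and SKI, a nuclear co-repressor of SMADs, rose with HAND1 sgRNA. SKI was at 27.6 ± 0.922 FPKM with HAND1 sgRNA, 23.4 ± 0.273 FPKM with ETV1 sgRNA and 22.4 ± 2.36 FPKM with Luciferase sgRNA (SD, n = 3 each), a rise of 0.29 against Luciferase sgRNA (SE 0.072, adjusted p = 0.0360). This call was lost under 11 of 18 alternatives: with no filter on low values (adjusted p = 0.0585), no intensity trend (0.0559) or only the 2 groups compared (0.0877), and without HAND1 sgRNA replicate 1 (0.124), 2 (0.0820) or 3 (0.0963), ETV1 sgRNA replicate 1 (0.0589), 2 (0.0563) or 3 (0.0539), or Luciferase sgRNA replicate 2 (0.102) or 3 (0.0737). SMAD1, SMAD5 and SMAD9 were not called in any comparison, and SMAD5, the most abundant of the 3, lay between 22.6 and 25.4 FPKM.

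SMAD4, the partner that the receptor SMADs need for most of their work in the nucleus, was nearly absent from every library and was singled out after its values were seen. It was listed at 0 in 5 of 9 libraries and reached at most 0.0169 FPKM. The 2 protein-coding genes that precede it on chromosome 18, in the gene order of RefSeq, were as low: ME2, a mitochondrial malic enzyme, reached at most 0.0687 FPKM, and ELAC1, a tRNA processing enzyme, at most 0.0570 FPKM. The next gene after SMAD4, MEX3C, averaged 16.5 FPKM and reached 19.1 FPKM. DCC beyond it was again listed at 0 in 8 of 9 libraries and reached at most 0.00919 FPKM, while MBD2, farther on, averaged 7.59 FPKM. On the other side MRO and MAPK4 reached at most 0.649 and 0.487 FPKM, and SKA1 beyond them lay between 12.5 and 15.3 FPKM. The low values of ME2, ELAC1 and SMAD4 were seen with all 3 sgRNAs, the control included.

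**Figure D4:**
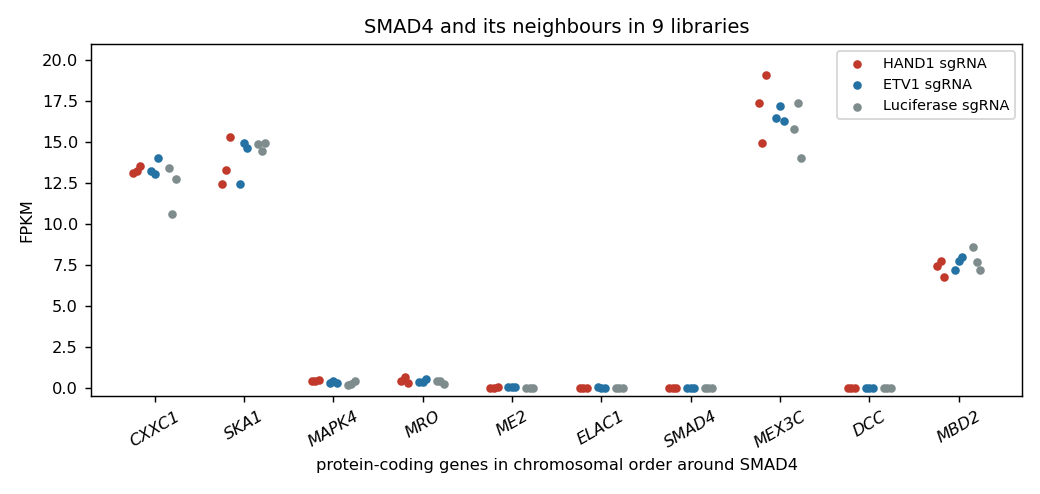
FPKM (linear axis) of SMAD4 and 9 neighbouring protein-coding genes in chromosomal order, with 1 point per library coloured by sgRNA. ME2, ELAC1 and SMAD4 lie at 0.0687 FPKM or below in all 9 libraries, next to MEX3C at a mean of 16.5 FPKM. DCC, on the far side of MEX3C, reaches at most 0.00919 FPKM.

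Of 13 listed BMP target genes 8 were tested. With HAND1 sgRNA against Luciferase sgRNA 2 were called lower, 0 were called higher and 6 were not called. The unadjusted p in limma was under 0.05 for 4 of the 8, and these went both ways. ID1 and RUNX2 were lower, while DLX5 (0.79, adjusted p = 0.0894) and HEY1 (0.31, adjusted p = 0.235) were higher and not called. ID1, an inhibitor of basic helix-loop-helix factors and the usual readout of BMP signalling, was at 83.7, 93.3 and 88.7 FPKM in HAND1 sgRNA libraries, 112, 120.0 and 122 FPKM in ETV1 sgRNA libraries, and 108, 114 and 135 FPKM in Luciferase sgRNA libraries. All HAND1 sgRNA values lay below the other 6, while BMP4, BMP5 and BMP7 were higher in the same libraries. ID1 fell by 0.42 (log2, SE 0.082, adjusted p = 0.0130) against Luciferase sgRNA and by 0.41 (SE 0.082, adjusted p = 0.0199) against ETV1 sgRNA. Without Luciferase sgRNA replicate 3, the highest library, the first was -0.32 (adjusted p = 0.0114). Leaving out HAND1 sgRNA replicate 1 (adjusted p = 0.0590) or 3 (0.0519) ended the first call, and the second ended without HAND1 sgRNA replicate 1 (0.0893) or 3 (0.0727) or ETV1 sgRNA replicate 2 (0.0776) or 3 (0.0843). RUNX2, a bone and cartilage transcription factor, was at 3.84, 4.48 and 4.19 FPKM in HAND1 sgRNA libraries, 5.61, 5.71 and 5.46 FPKM in ETV1 sgRNA libraries, and 6.67, 6.59 and 5.41 FPKM in Luciferase sgRNA libraries. It fell by 0.48 against Luciferase sgRNA (SE 0.092, adjusted p = 0.0109), a call that was lost without Luciferase sgRNA replicate 2 (0.0514). ID2, at 1.26 to 2.84 FPKM, and ID3, at 1.19 to 3.57 FPKM, were low and not called, and ID4 was listed at 0 in 8 of 9 libraries.

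**Figure D5:**
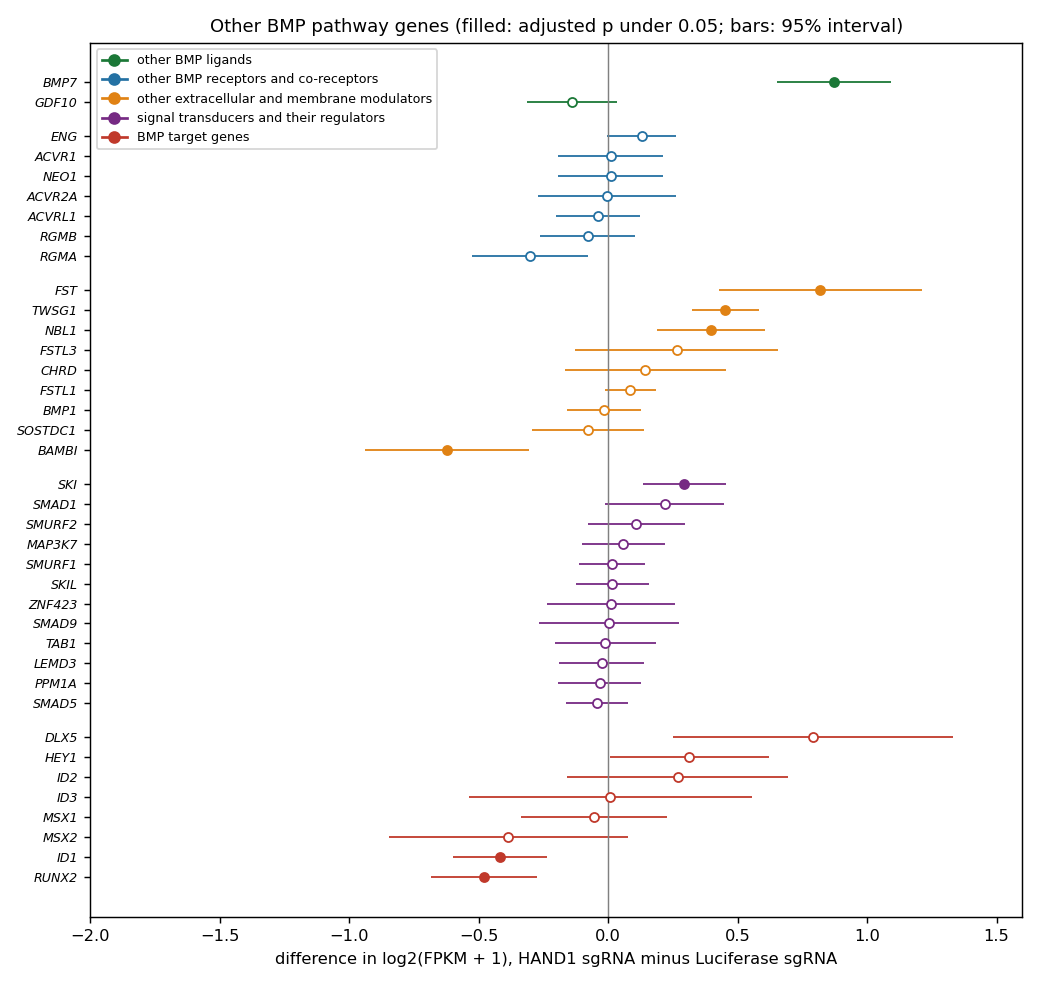
Points give the difference in log2(FPKM + 1) of HAND1 sgRNA minus Luciferase sgRNA for the 38 tested pathway genes outside the 10, coloured by list, with 95% confidence intervals; filled points had an adjusted p under 0.05 in limma. BMP7 (0.87), FST (0.82), TWSG1 (0.45), NBL1 (0.40) and SKI (0.29) lie above 0 and BAMBI (-0.62), RUNX2 (-0.48) and ID1 (-0.42) below it, and no receptor is filled. FST would not have passed the filter on low values without its HAND1 sgRNA libraries, so its filled point is a description.

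Genes with the most similar profile were sought for TMEM100 and BMP4 by Pearson's r of log2(FPKM + 1) over the 9 libraries, among 159 other genes whose mean reached 10 FPKM and which had a range of group means of at least 0.5. The 9 points are 3 groups, so r mostly records how the group means are spaced, and it is given as a description. For TMEM100 they were CTSL1, a lysosomal protease (r = 0.995), IGDCC3 (0.993), COTL1, an actin binder (0.993), STC2, a secreted glycoprotein (0.991), and CD40, a TNF receptor family member (0.991). CD40 averaged 18.8 FPKM with HAND1 sgRNA, 43.6 FPKM with ETV1 sgRNA and 42.7 FPKM with Luciferase sgRNA, and IGDCC3 averaged 21.9, 40.1 and 43.7 FPKM in the same order of groups. For BMP4 they were the metalloprotease inhibitors TIMP3 (0.990) and TIMP2 (0.989), SOD3, extracellular superoxide dismutase (0.982), LDB2, a LIM domain binding protein (0.976), and DACT1, a WNT pathway modulator (0.973). TIMP3 averaged 66.5 FPKM with HAND1 sgRNA, 51.7 FPKM with ETV1 sgRNA and 45.4 FPKM with Luciferase sgRNA, and SOD3 averaged 44.4, 29.1 and 22.4 FPKM in the same order, each with ETV1 sgRNA between the other groups.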

How the data were processed

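PolyA RNA of GIST-T1 was measured in 9 libraries, 3 for each sgRNA, grouped by the labels. Per the labels' protocols, extraction used RNeasy Plus and the NEBNext Ultra II libraries were non-stranded, so reads of overlapping genes on opposite strands cannot be told apart. Per the submitters' processing notes, the tools were STAR and Cufflinks with build hg19; their versions, annotation and filters are not stated. The authors deposited FPKM, 1 value per gene symbol and library, which are not counts, so absolute depth is unknown. Relative depth was the most frequent ratio between libraries among genes of 0.001 to 0.1 FPKM.

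Values below 1e-06 were read as 0. Genes averaging 1 FPKM or more over all libraries entered 1 fit of log2(FPKM + 1), that is a pseudocount of 1, by limma 3.58.1 (R 4.3.3). The group was its only term, an intensity trend was used, and there were 6 residual degrees of freedom and 4.15 prior ones. Tests were two-sided, with Benjamini-Hochberg adjustment over all 11348 genes, and an adjusted p under 0.05 was a call. The code of the fit was checked on simulated data with known changes, drawn independently for each gene, and no result here rests on it. The members and lists were chosen with earlier results of these data known. Named genes are HAND1 and ETV1, the 10 members, list genes called in any comparison (or the 2 of highest mean in a list with none) and the 5 genes most like TMEM100 and BMP4 over the libraries; others were named after their values were seen. Sequences came from RefSeq start regions of build GRCh38.p14, which differs from the authors' build, and overlaps of exons and the gene order are from GRCh38 annotations. Alternatives changed the pseudocount (0.1, 5), the filter (none, 5 FPKM), the scaling (quantiles, or centring on the median of genes at 10 FPKM or more) or the fit: no trend, only the 2 groups compared, the replicate number as a block, and each library left out.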

Additional observations from a re-analysis of the deposited data

How the results depend on the processing

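The directions of TMEM100, BMP4, BMP2 and BMP5 against Luciferase sgRNA with HAND1 sgRNA were kept under all 18 alternatives (17 for BMP2, which a minimum of 5 FPKM removes). Of the gene results under an alternative, 512 kept direction and stayed called or uncalled as in the main fit. Another 64 kept direction and lost the call, and 5 turned direction, all of them uncalled. The 512 include results that had no call to lose, and those of BMP4 and TMEM100, so they do not measure how stable the calls were. With 1 library left out, the difference of ETV1 sgRNA from Luciferase sgRNA ranged from -0.018 (ETV1 sgRNA replicate 1 left out) to 0.069 for BMP5 and from -0.024 (Luciferase sgRNA replicate 3) to 0.112 for BMPR2. That of HAND1 sgRNA from ETV1 sgRNA ranged from -0.013 (ETV1 sgRNA replicate 3) to 0.091 for BMPR1A, from -0.012 (HAND1 sgRNA replicate 1) to 0.111 for BMPR2 and from -0.360 to 0.106 (HAND1 sgRNA replicate 3) for SMAD6. BMP4 and TMEM100 were chosen for their differences with HAND1 sgRNA, so counts of members in those comparisons are a description. Leaving out a library gave 2 to 4 members past the threshold for HAND1 sgRNA against Luciferase sgRNA, 0 for ETV1 sgRNA against Luciferase sgRNA and 2 to 3 for HAND1 sgRNA against ETV1 sgRNA. It gave 3 to 7, 0 and 1 to 8 other pathway genes, and 433 to 730 (main 749), 11 to 26 (main 23) and 271 to 583 (main 460) of all genes, in the same order of comparisons. A minimum of 5 FPKM, which removes low genes, left 5 other pathway genes called for HAND1 sgRNA against Luciferase sgRNA. With only the 2 groups compared, 14 of all genes were called for ETV1 sgRNA against Luciferase sgRNA, where the fit has fewer libraries. With a pseudocount of 0.1 and of 5, the differences of HAND1 sgRNA from Luciferase sgRNA were 1.146 and 0.43 for BMP7, 1.46 and 0.29 for FST, -1.08 and -0.27 for BMP2, -0.89 and -0.27 for BAMBI and -0.56 and -0.29 for RUNX2, all still called. Median centring and quantile normalization moved the median difference by at most 0.01.

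Libraries with the same replicate number deviated from their group means with correlations between -0.15 and 0.14, so the numbers were not taken to pair the libraries. With the replicate block, 4 members and 6 other pathway genes were past the threshold for HAND1 sgRNA against Luciferase sgRNA, 0 and 0 for ETV1 sgRNA against Luciferase sgRNA, and 2 and 4 for HAND1 sgRNA against ETV1 sgRNA; of all genes 632, 16 and 364 were called. The calls lost under the block were BMP5 for HAND1 sgRNA against ETV1 sgRNA (adjusted p = 0.0725) and, for HAND1 sgRNA against Luciferase sgRNA, FST (0.0524) and BAMBI (0.0630); no other named member or pathway gene lost its call. Absolute depth is unknown, which limits what can be said of BMP2, SMAD6, FST and BAMBI, at a few FPKM, and of GREM1, NOG and SMAD7.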

Other observations

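Some pathway genes below the filter or short of the threshold kept a group apart and are given as values only. BMPR1B, another type I receptor, was at 1.11, 1.18 and 1.31 FPKM in HAND1 sgRNA libraries, 0.526, 0.898 and 0.720 FPKM in ETV1 sgRNA libraries, and 0.640, 0.857 and 0.561 FPKM in Luciferase sgRNA libraries; its mean of 0.867 FPKM kept it from being tested. DLX5, a homeobox target of BMP signals in bone, was at 2.19, 2.26 and 3.66 FPKM in HAND1 sgRNA libraries, 1.17, 0.749 and 1.24 FPKM in ETV1 sgRNA libraries, and 1.99, 1.09 and 0.502 FPKM in Luciferase sgRNA libraries, with a difference of 0.79 of HAND1 sgRNA from Luciferase sgRNA that was not called (adjusted p = 0.0894 in limma). DAND5, a secreted antagonist, was listed at 0 in all ETV1 sgRNA and Luciferase sgRNA libraries and at 0.0691, 0.132 and 0.0931 FPKM in HAND1 sgRNA libraries. These genes, all higher with HAND1 sgRNA, were chosen after their values were seen. Others also kept a group apart, such as TLL2. It was at 0.177 to 0.256 FPKM in ETV1 sgRNA libraries and at 0.274 FPKM or more in the rest. How many of all genes keep a group apart was not counted.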
